A study of Bos taurus with 20 samples.

Results

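The 7 genes of AMP-activated protein kinase (AMPK) were followed on 20 bovine arrays. They were found as all non-control spots whose gene name was PRKAA1, PRKAA2, PRKAB1, PRKAB2, PRKAG1, PRKAG2 or PRKAG3, and they took 20 of the 61325 non-control spots of an array and 7 of its 22550 genes or transcripts. The family was chosen by the levels of PRKAG3 on these arrays, so the PRKAG3 values are given as a description without a test. The arrays were custom bovine Agilent slides read in 1 colour, and each received Cy3-labelled cRNA from 200 ng of RNA.

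There were 5 groups with 4 biological replicates each, all from antral follicles of 3 to 6 mm taken from cow ovaries after slaughter. The groups were theca cells (TH), scraped from the follicle wall, mural granulosa cells (GC), cumulus cells (CC), oocytes, and CC detached after 4 h of in vitro maturation (IVM). The age of the cows, whether tissue was pooled and the medium of the IVM are not given for these arrays in the labels, and the deposited labels name no other treatment. Slide 1 held replicates 1 and 2 of TH, GC, CC and oocyte, and slide 2 held their replicates 3 and 4. All 4 arrays of CC after IVM were on slide 3, which held no other array, so for every comparison of IVM with CC below the slide and the maturation cannot be told apart.

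AMPK senses the energy state of the cell and is made of a catalytic α, a scaffolding β and a nucleotide-binding γ subunit. AMP bound by γ favours phosphorylation of α by LKB1 (STK11), and the active kinase slows synthesis of lipid, glycogen and protein. In the follicle AMPK is known from work on granulosa cell steroid production and on the control of meiosis in the oocyte, and γ3 (PRKAG3) is known as the isoform of skeletal muscle.

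The family was chosen by a γ gene, and the γ genes PRKAG3 and PRKAG2 are the subunits that differed most between CC and CC after IVM, so the probes of the 3 γ genes are shown first. Each γ gene had 2 spots, and each spot had a probe of its own. For PRKAG2 the whole probe is given and for the other genes the first 30 of its 60 bases, 5′ to 3′.

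PRKAG3 probe 1: gcgtttctgttgcttatggagtgttattct

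PRKAG3 probe 2: gtactgggtacaattcagaccccaaactct

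PRKAG2 probe 1: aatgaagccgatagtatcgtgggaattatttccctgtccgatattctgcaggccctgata

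PRKAG2 probe 2: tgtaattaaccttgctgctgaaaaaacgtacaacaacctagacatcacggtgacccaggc

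PRKAG1 probe 1: agctgaggttattgcttttcctggcaaacc

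PRKAG1 probe 2: tcatgtttcatgctgtatggaggaggctga

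The GC content was 35% in both PRKAG3 probes, 45% in both PRKAG2 probes, and 41.7 and 45% in the PRKAG1 probes. The longest run that any of the 14 different AMPK probes shared with a probe for another gene on the array was 15 bases. On the UMD 3.1 assembly, the files place the PRKAG3 transcript at chr2:107509452-107516981, PRKAG2 at chr4:114885501-114925565 and PRKAG1 at chr5:30971839-30982102. They place PRKAA1 at chr20:33688291-33716677, PRKAA2 at chr3:90055299-90127142, PRKAB1 at chr17:57999616-58009037 and PRKAB2 at chr3:22635094-22646401. These are spans of the transcripts, and the files do not give the exon, strand or position of a probe.

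Levels are given as log2 of the background-subtracted intensity, from which the array's own 75th percentile was subtracted, and a gene takes the median of its spots. A value of 0 is therefore the 75th percentile of the array. Levels of different genes were not compared, because they depend on their probes. Between 49.3 and 68.8% of the spots of an array were well above background by the scanner software's mark, and oocyte replicate 2 had the lowest share. The 75th percentile was 1521 to 2891 on oocyte arrays, 284 to 396 after IVM and 368 to 1101 in TH, GC and CC. The dimmest spot so marked lay at -6.84, -4.02, -6.84 and -5.91 on oocyte replicates 1 to 4, and between -5.12 and -4.59 after IVM. A reading near background thus depends on the brightness and background of its array. The part of this in the group differences was not tested. The markers followed the labels, with 6 oocyte markers averaging between 5.14 and 5.53 on oocyte arrays and between -5.56 and -1.38 on the other arrays, and 5 theca markers averaging between 5.56 and 5.90 on TH arrays against at most 2.44 elsewhere. All 7 AMPK genes had a spot well above background on 3 or 4 arrays of 1 or more groups.

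PRKAG3, the γ3 subunit, read highest in GC, lower in CC, lower again in TH, far lower in CC after IVM, and not above background in the oocyte. In GC, its values on replicates 1 to 4 were 2.07, 2.31, 2.67 and 1.74 (mean 2.20 ± 0.39 SD, n = 4). In CC they were 1.18, 0.30, 1.11 and 1.14 (0.93 ± 0.42 SD, n = 4). In TH they were -0.85, -0.25, -0.67 and 0.14 (-0.41 ± 0.44 SD, n = 4). These 3 cell types did not overlap with each other, and both PRKAG3 probes were well above background on all 12 of their arrays.

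After 4 h of IVM, the PRKAG3 values in CC were -3.15, -6.11, -4.28 and -3.67 (-4.30 ± 1.29 SD, n = 4). All of them lay below the lowest CC, GC and TH values, and on replicate 2 neither probe was well above background. The difference between CC after IVM and CC was -5.24, and -4.63 without CC after IVM replicate 2. The lower level was seen with each probe, as the difference was -5.76 for probe 1 and -4.71 for probe 2.

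In the oocyte, PRKAG3 read -7.75, -6.20, -7.62 and -7.88, and no spot was well above background on any of these arrays. A lower bound on the difference was therefore set with the dimmest spot that each oocyte array marked as well above background. By that bound, PRKAG3 was at least 274-fold higher in GC, at least 114-fold higher in CC, at least 45.1-fold higher in TH and at least 3.03-fold higher in CC after IVM than in the oocyte. The measured difference between the oocyte and the mean of TH, GC and CC was -8.27, and it was -7.77 within slide 1 and -8.77 within slide 2. The size of these differences depended on the background. With normexp background correction the difference was -5.54 in the oocyte and -3.14 after IVM, and with the authors' log2 table, which leaves the background in, it was -5.73 and -3.95.

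**Figure D1:**
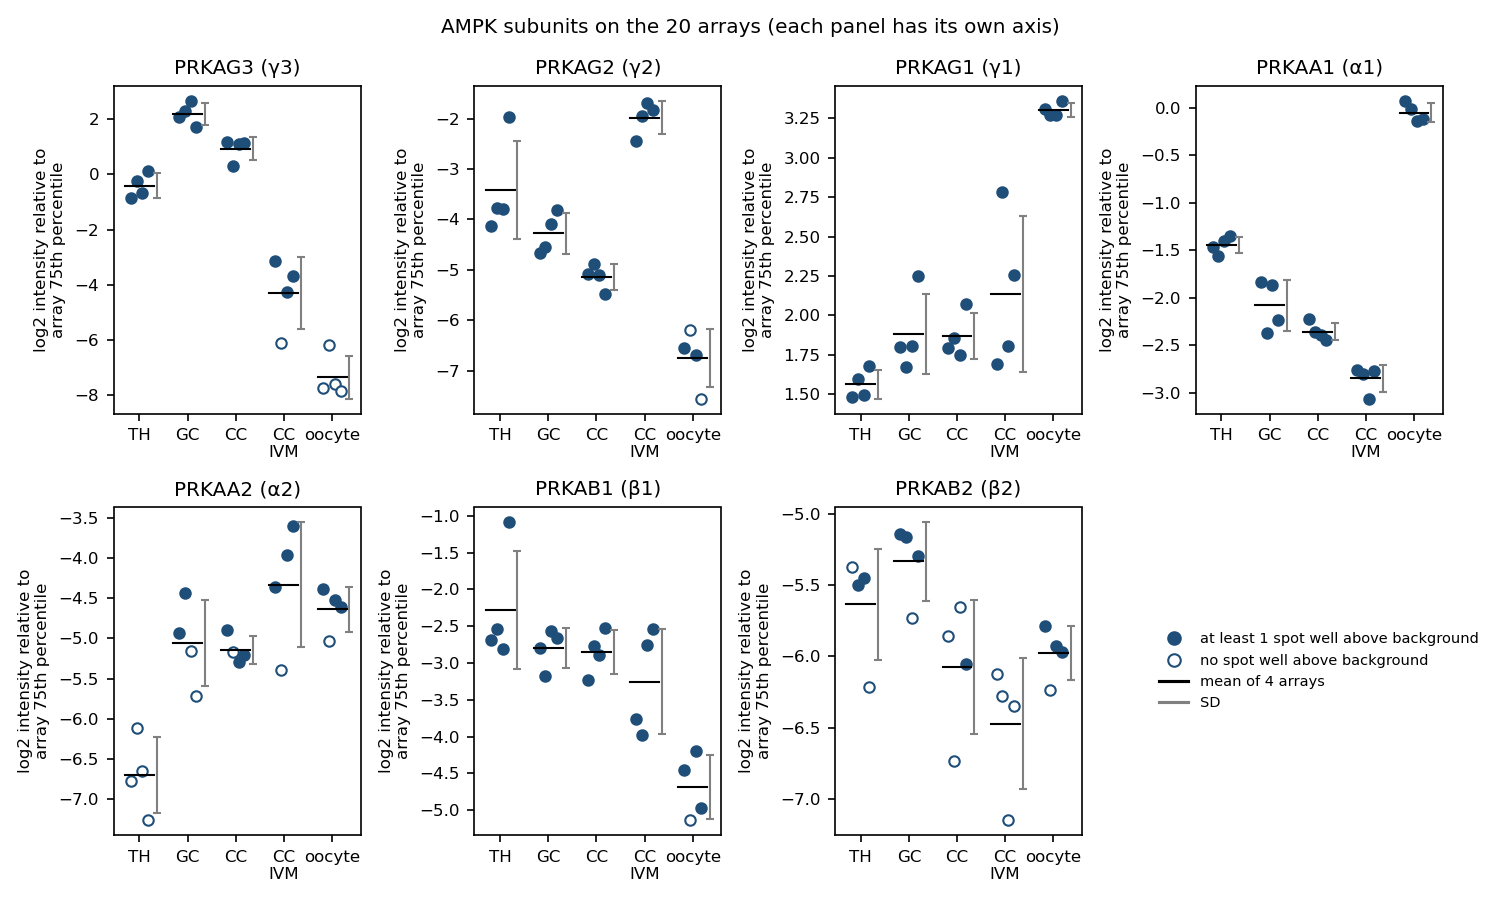
Level of each AMPK gene (y axis, log2 intensity relative to the 75th percentile of the array) on the 4 arrays of each group (x axis), with the mean as a line and the SD as a bar, and open circles where no spot was well above background. PRKAG3 steps down from GC (mean 2.20) to CC, TH and CC after IVM without overlap between neighbouring groups. In the oocyte (mean -7.36) no PRKAG3 spot was well above background. CC after IVM replicate 2 had no such spot either, so it cannot be ordered against the oocyte arrays. PRKAG2 is highest in CC after IVM, and PRKAA1 and PRKAG1 are highest in the oocyte.

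TH arrays also carried granulosa transcripts. The 4 markers of granulosa and cumulus cells averaged between -0.89 and 0.36 on TH arrays, against 2.70 to 4.46 on GC arrays. Of them, FSHR read -3.29 in TH and 2.13 in GC, and CYP19A1, the aromatase, was well above background on 2 of the 4 TH arrays. AMH read 2.83 in TH and 4.68 in GC, and INHBA read 4.09 in TH and 7.28 in GC. On the scale of summed intensity of these 4 markers, TH arrays lay between 4.18 and 5.06 and GC arrays between 6.79 and 8.82. The part of granulosa cells in the PRKAG3 reading of TH was not tested, and in bulk samples fewer cells of a type and less RNA per cell cannot be told apart.

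Because γ3 is known from skeletal muscle, 12 muscle genes were read beside it. They averaged between -4.66 and -4.25 in TH and GC, between -4.23 and -3.60 in CC before and after IVM, and between -5.61 and -4.86 in the oocyte. The muscle myosin genes MYH1 and MYH2 were not well above background on any TH, GC, CC or CC after IVM array, and the muscle creatine kinase CKM was so on 2 of these 16 arrays, both of CC. Other muscle genes were detected, since 6 or 7 of the 12 were well above background on 3 or 4 arrays of each group. MYH7, MYLPF, TNNI2, MB, CASQ1 and ACTA1 were so on all 16 of these arrays. Of them, MB, myoglobin, read -0.17 in TH, CASQ1, the calcium store protein calsequestrin, read -0.48 in TH, and ACTA1, skeletal muscle actin, read 5.93 in CC, 4.69 in CC after IVM and 0.63 in GC. The part of muscle cells in the PRKAG3 readings was not tested. MYH2 read 0.60 in the oocyte and was well above background on all 4 oocyte arrays, where PRKAG3 was not.

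The nearest named genes on either side of PRKAG3 were read too. CYP27A1, a sterol 27-hydroxylase placed by the files at chr2:107462687-107504968, read 3.54 in TH, 2.43 in GC, 1.62 in CC, 0.65 in CC after IVM and -4.28 in the oocyte. It was thus also lowest in the oocyte, with CC after IVM next (r = 0.85 with PRKAG3 across the 20 arrays), but TH was highest. TTLL4, a tubulin-modifying enzyme on the same side, read 4.57 in the oocyte and between -0.18 and 2.00 in the other groups. On the other side, WNT6 was well above background on all 4 TH arrays and 1 GC array, and WNT10A on 2 oocyte arrays. The difference between CC after IVM and CC was -0.97 for CYP27A1 and -2.18 for TTLL4, against -5.24 for PRKAG3.

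Among 17431 genes well above background on 3 or 4 arrays of a group, the patterns most like that of PRKAG3 over the 20 arrays were those of CREB3L4, PPM1K, DDAH1, QRFPR and ABHD1 (Pearson's r between 0.96 and 0.98 across arrays). PPM1K, a mitochondrial phosphatase of branched-chain amino acid breakdown, read -1.76 in TH, -0.42 in GC, -1.46 in CC, -4.08 in CC after IVM and -5.03 in the oocyte. The most opposite patterns were those of KHDRBS3, PACSIN2, MAP2K1, F3 and HNRNPF (r between -0.97 and -0.96). MAP2K1, the kinase MEK1, read between 1.60 and 1.96 in TH, GC and CC, 3.49 in CC after IVM and 4.22 in the oocyte. The 20 arrays fall into 5 groups and are not independent points, so these correlations are a description only.

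The other 6 subunits were tested in limma models of the whole array, with p-values adjusted over all genes by the Benjamini–Hochberg method and a threshold of 0.05. An F-test of any difference among the 4 cell types called 6 of 6, against 71.3% of all genes. Its weakest call was PRKAB2 (adjusted p = 0.048), and the count was 5 or 6 under the 31 alternatives. In the oocyte, 3 of the 6 were higher than the mean of TH, GC and CC, against 32.9% of all genes, and 2 were lower, against 38.3%. With normexp background correction the split was 2 higher and 4 lower, and with the deposited table it was 2 higher and 3 lower. The median difference of all genes between the oocyte and the somatic mean was -0.52 on this scale, and it was -0.01 with quantile normalization and -1.30 with normexp, so small differences depend on the scaling.

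PRKAG2, the γ2 subunit, was the AMPK gene with the largest tested rise after IVM. Its values in CC were -5.09, -4.89, -5.10 and -5.49 (-5.14 ± 0.25 SD, n = 4), and in CC after IVM they were -2.45, -1.94, -1.69 and -1.83 (-1.98 ± 0.33 SD, n = 4). The groups did not overlap, and the rise of 3.16 ± 0.23 (SE) passed the test (limma, adjusted p = 1.3e-05). It was 3.11 for probe 1 and 3.22 for probe 2, although probe 2 was not well above background on any CC array. The rise was 1.57 with normexp correction and 1.60 with the deposited table, and the adjusted p was at most 2.6e-04 under the 20 alternatives. On these arrays the γ2 reading was higher and the γ3 reading lower after IVM.

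In TH, PRKAG2 read -4.12, -3.77, -3.79 and -1.97, and in GC it read -4.66, -4.55, -4.08 and -3.82. TH replicate 4 lay apart from the other TH arrays, and the TH and GC ranges overlapped. CC was lower than TH, with a difference of -1.73 ± 0.41 (SE, limma adjusted p = 0.0036) and no overlap, and of -1.25 (adjusted p = 0.0045) without TH replicate 4. For this comparison 31.8% of all genes were called, and 26.3% between GC and TH and 9.88% between CC and GC.

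In the oocyte, PRKAG2 read -6.55, -6.19, -6.68 and -7.55, below every somatic value, and was well above background on 2 of the 4 arrays. Its difference from the somatic mean was -2.47 ± 0.33 (SE, limma adjusted p = 5.9e-06). As a bound, it was at least 5.21-fold higher in TH, at least 2.86-fold higher in GC and at least 1.57-fold higher in CC than in the oocyte. The probes differed here, since probe 1 gave -3.40 and probe 2, which was above background on only 1 of the 4 GC arrays and none of the CC arrays, gave -1.54.

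PRKAG1, the widely expressed γ1 subunit, was the γ gene that rose in the oocyte. It read 3.31, 3.27, 3.27 and 3.36 on oocyte arrays (3.30 ± 0.04 SD, n = 4), above all 12 somatic arrays, which lay between 1.48 and 2.25. The rise was 1.53 ± 0.12 (SE, limma adjusted p = 9.0e-09), and between 1.31 and 2.12 under the alternatives. After IVM, PRKAG1 read 1.69, 2.78, 1.81 and 2.26, a range that took in that of CC (1.75 to 2.07), and the difference of 0.27 ± 0.26 (SE) was not past the threshold (limma adjusted p = 0.42). The means of TH, GC and CC were within 0.32 of each other, and no pair of them passed the test.

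**Figure D2:**
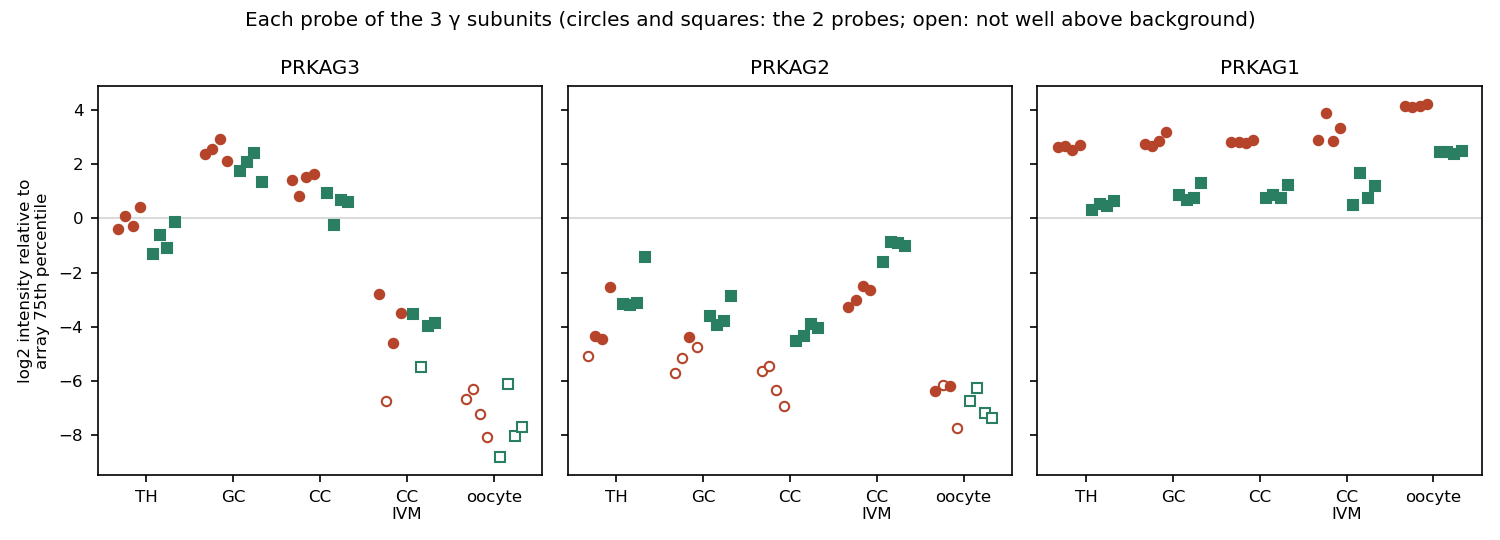
Each of the 2 probes of the 3 γ genes on every array (y axis, log2 intensity relative to the 75th percentile of the array, x axis, group), with open symbols where the spot was not well above background. Both probes of PRKAG3 are lower in CC after IVM than in CC, both probes of PRKAG2 are higher there, and both probes of PRKAG1 are highest in the oocyte.

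Of the catalytic subunits, PRKAA1 (α1) rose in the oocyte. It read 0.07, -0.02, -0.15 and -0.11 there (-0.05 ± 0.10 SD, n = 4). TH followed with -1.46, -1.56, -1.41 and -1.36, then GC with -1.84, -2.37, -1.87 and -2.24, and CC with -2.23, -2.36, -2.40 and -2.44. GC and CC overlapped, and the other neighbours in this order did not. The rise in the oocyte over the somatic mean was 1.91 ± 0.12 (SE, limma adjusted p = 6.6e-10), and between 1.55 and 2.25 under the alternatives.

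PRKAA1 was also lower in GC than in TH, with a difference of -0.63 ± 0.15 (SE, limma adjusted p = 0.0042), and lower in CC than in TH, with a difference of -0.91 ± 0.15 (SE, adjusted p = 1.6e-04). After IVM, PRKAA1 read -2.76, -2.80, -3.06 and -2.77, below all CC values. That difference of -0.49 ± 0.17 (SE, limma adjusted p = 0.041) was called in only some settings. It was not past the threshold without any one of the 4 CC arrays (adjusted p between 0.073 and 0.093), without CC after IVM replicate 3 or 4 (0.061 and 0.064), or with the array median (0.063), and with normexp correction it was -0.04.

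PRKAA2 (α2) was near background in much of the follicle. No spot was well above background on any TH array, where it read -6.78, -6.11, -6.65 and -7.26. In GC it read -4.94, -4.44, -5.15 and -5.72 and in CC -4.90, -5.18, -5.29 and -5.21, and it was well above background on 2 GC arrays and 3 CC arrays. PRKAA2 was lower in TH than in GC (difference of GC from TH 1.64 ± 0.27 SE, limma adjusted p = 3.1e-04) and than in CC (1.55 ± 0.27 SE, adjusted p = 3.5e-04), with a bound for CC over TH of at least 1.10-fold. In the oocyte PRKAA2 read -4.38, -5.04, -4.52 and -4.61 and was called higher than the somatic mean by 1.00 ± 0.22 (SE, limma adjusted p = 8.6e-04), but with normexp correction it was called lower (-0.67, adjusted p = 0.0015), and with the deposited table (0.20) or within slide 1 (0.68) it was not past the threshold. The oocyte arrays overlapped with GC and CC arrays and not with TH arrays, over which the bound was at least 1.57-fold.

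In CC after IVM, PRKAA2 read -4.36, -5.39, -3.97 and -3.61, with no spot above background on replicate 2. The difference from CC of 0.81 ± 0.35 (SE) was not past the threshold (limma adjusted p = 0.081). Without CC after IVM replicate 2 it was 1.17 and past the threshold (adjusted p = 0.0045). Replicate 2 was thus the lowest of these arrays for both PRKAA2 and PRKAG3 and the highest for PRKAG1.

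Of the scaffold subunits, PRKAB1 (β1) fell in the oocyte. It read -4.45, -5.13, -4.20 and -4.97 there (-4.69 ± 0.44 SD, n = 4), below all somatic arrays, which lay between -3.24 and -1.09. The fall was -2.04 ± 0.27 (SE, limma adjusted p = 5.7e-06), and between -2.26 and -1.25 under the alternatives. The highest somatic value was that of TH replicate 4 (-1.09), with the other TH arrays between -2.81 and -2.53, and no pair of TH, GC and CC passed the test. After IVM it read -3.76, -3.97, -2.75 and -2.54, and the difference from CC of -0.40 ± 0.34 (SE) was not past the threshold (limma adjusted p = 0.36).

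PRKAB2 (β2) was at or near background in every group, with a spot well above it on 2 TH, 3 GC, 1 CC, no CC after IVM and 3 oocyte arrays. Its group means lay between -6.47 (CC after IVM) and -5.33 (GC), and all neighbours in that order overlapped. The oocyte differed from the somatic mean by -0.30 ± 0.20 (SE, limma adjusted p = 0.18), and with normexp correction by -1.26 (adjusted p = 5.3e-07). Of the single cell types, GC was the one it differed from past the threshold (-0.64 ± 0.25 SE, limma adjusted p = 0.031). After IVM the difference from CC was -0.40 ± 0.30 (SE, limma adjusted p = 0.30), and with normexp correction it was 0.57 (adjusted p = 0.0012).

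After IVM, 2 of the 6 tested subunits were called, PRKAG2 higher and PRKAA1 lower. Over all genes, 30.3% were called higher and 15.5% lower, and the median difference of all genes was 0.37, against 0.01 with quantile normalization. The subunit count was 1 to 3 over the alternatives, and PRKAG2 was called under all 20 alternatives fitted for it.

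The balance of isoforms was compared as a log2 ratio of 2 genes within an array, which removes the scaling of the array. Such a ratio has no absolute meaning, but its difference between groups does not depend on the 75th percentile that was subtracted. Where a gene of the pair is near background, the ratio can still change with the brightness of the array. PRKAA2, PRKAB2 and, in the oocyte, PRKAG2 are such genes. For the 6 comparisons an exact two-sided permutation test was used, with Benjamini–Hochberg adjustment over the 6. The smallest p it allows is 0.0011 for 4 oocyte against 12 somatic arrays and 0.029 for 4 against 4 arrays. The oocyte test treats the 12 somatic arrays as exchangeable, although TH, GC and CC are different cell types. The mean ratio of PRKAG2 to PRKAG1, for example, was -4.98 in TH, -6.16 in GC and -7.01 in CC. Its p-values are therefore not those of 12 replicates of a single condition.

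The ratio of PRKAG2 to PRKAG1 was lower in the oocyte by -4.00, with means of -10.05 ± 0.62 (SD, n = 4) and -6.05 ± 1.02 (SD, n = 12) and no overlap (exact permutation test, adjusted p = 0.0033). PRKAG2 was well above background on only 2 of the 4 oocyte arrays, so the size of this difference rests partly on readings near background. After IVM the same ratio was higher than in CC by 2.90, also with no overlap (exact permutation test, adjusted p = 0.043). The ratio of PRKAB2 to PRKAB1 was higher in the oocyte by 1.75, with no overlap (exact permutation test, adjusted p = 0.0033), although PRKAB2 was near background on most arrays, and its difference after IVM was 0.0026 (adjusted p = 1, exact permutation test). The ratio of PRKAA2 to PRKAA1 was higher after IVM by 1.30, with no overlap (exact permutation test, adjusted p = 0.043).

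In the oocyte the PRKAA2 to PRKAA1 ratio differed by -0.91 from the somatic arrays, which were themselves spread, with means of -5.25 in TH, -2.98 in GC and -2.79 in CC (exact permutation test, adjusted p = 0.22). Where only 3 arrays are left in a group, the smallest p of the IVM test is above 0.05, so leaving out an array ends both IVM calls by construction. As a description, the ratio of PRKAG3 to PRKAG2 was 6.48 ± 0.62 (SD, n = 4) in GC, 6.07 ± 0.62 in CC, 3.00 ± 0.62 in TH, -2.33 ± 1.45 in CC after IVM and -0.62 ± 0.54 in the oocyte, where both genes were at or near background.

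**Figure D3:**
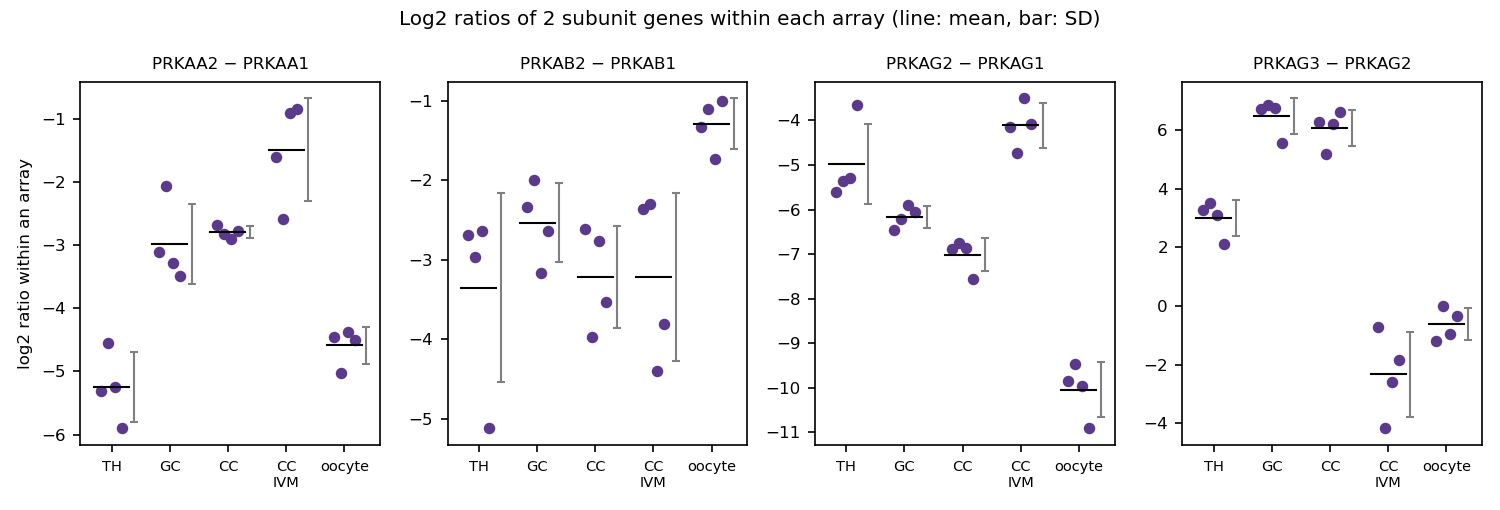
Log2 ratio of 2 AMPK genes within each array (y axis) by group (x axis), with the mean of 4 arrays as a line and the SD as a bar. The height of a panel depends on the probes, so only differences within a panel can be read. PRKAG2 relative to PRKAG1 is lowest in the oocyte (mean -10.05), where PRKAG2 was near background, and highest in CC after IVM (mean -4.11). PRKAG3 relative to PRKAG2 is lower in CC after IVM and in the oocyte than in TH, GC and CC.

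The genes around AMPK were read from a list of 64 upstream regulators, targets and related kinases, 62 of which were on the array. The F-test called 51 of the 62, against 71.3% of all genes. In the oocyte, 25 were higher and 18 lower than the somatic mean, or 40.3 and 29.0% of the list against 32.9 and 38.3% of all genes, and the median difference of the list was 0.16. With normexp background correction, 18 were higher and 34 lower. After IVM, 14 were higher and 13 lower, or 22.6 and 21.0% against 30.3 and 15.5% of all genes, with a median of 0.20, and with normexp correction 36 were higher and 10 lower. Of the 25 and 18 calls in the oocyte, 7 and 2 rested on a group in which the gene was detected on fewer than 3 of 4 arrays, and 5 and 1 changed sign under another scaling or background correction. Of the 14 and 13 calls after IVM, 2 and 2 rested on such a group, and 1 and 2 changed sign. The counts by role below come from small groups of genes. Each is to be read beside the same shares of all genes, 32.9% higher and 38.3% lower in the oocyte and 30.3% higher and 15.5% lower after IVM.

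Of 8 genes of the upstream kinases, 3 rose in the oocyte and 2 fell, against 32.9 and 38.3% of all genes, and 3 did not pass the test. The kinase LKB1 (STK11) rose by 2.74 (limma adjusted p = 3.3e-04, and 1.47 with normexp correction), with arrays that overlapped, and its pseudokinase partners STRADA and STRADB rose by 1.55 and 1.31. MAP3K7 (TAK1) fell, by -1.81 ± 0.11 (SE, limma adjusted p = 6.1e-10), with no overlap. After IVM, 3 of these 8 rose and 1 fell, against 30.3 and 15.5% of all genes. The fall was that of STRADA, -1.98 ± 0.33 (SE, limma adjusted p = 0.0016), but its probes disagreed, with differences from -2.96 to 1.19, and with normexp correction it was at -0.88.

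Of 7 enzymes that turn over adenine nucleotides, 3 were called higher in the oocyte and 2 lower, against 32.9 and 38.3% of all genes. The 3 include AMPD1 (1.09), but it was detected on 1 TH, 0 GC and 0 CC arrays. AMPD1 gave no fold above the detection limit and read -1.07 with normexp correction and -0.21 with the deposited table. AK4, a mitochondrial adenylate kinase, rose by 4.64 ± 0.26 (SE, limma adjusted p = 1.7e-10), and AMPD3, an AMP deaminase, by 2.70. With normexp correction, however, AMPD3 was at -0.12, and as a bound it was at least 2.69-fold higher than the mean of TH, GC and CC. ADK, adenosine kinase, fell by -1.92 and AK1, the cytosolic adenylate kinase, by -1.39. After IVM, AMPD1, the AMP deaminase named for muscle, was above background on all 4 arrays and on none of the CC arrays, at least 3.26-fold higher (limma adjusted p = 2.8e-04, and a difference of 1.18 with normexp correction). AMPD2 fell by -1.29. AMPD3 was called lower (-0.82), but it was not well above background on any array after IVM and read 0.44 with normexp correction and 0.10 with the deposited table, and 4 did not pass the test.

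Of the 3 genes of the folliculin complex, which acts on the lysosomal side of AMPK, FLCN rose in the oocyte by 1.88 and none passed the test after IVM. FNIP2 was also called higher in the oocyte (1.04), but it was detected on 2 TH, 0 GC and 1 CC arrays, gave no fold above the detection limit, and read -0.89 with normexp correction and -0.03 with the deposited table. Of 3 genes of adipokine signalling, the adiponectin receptors ADIPOR1 and ADIPOR2 rose in the oocyte, ADIPOR1 by 2.93 ± 0.28 (SE, limma adjusted p = 1.2e-07), while ADIPOQ was detected on 1 GC array and on no TH, CC or oocyte array, so that its call (-1.02, and -0.23 with quantile normalization) gives no direction. ADIPOR2 was the only gene of these 3 that passed the test after IVM, with a rise.

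Of 8 lipid targets, 2 rose in the oocyte and 4 fell, against 32.9 and 38.3% of all genes. The rises were those of ACACA, the acetyl-CoA carboxylase that AMPK phosphorylates, by 2.37 (limma adjusted p = 1.5e-06), and of CPT1A by 0.76. ACACA was detected on 2 TH, 1 GC and 2 CC arrays, was at least 3.31-fold higher as a bound, and differed by 1.18 with the deposited table and 0.15 with normexp correction. The CPT1A arrays overlapped, and the oocyte read -1.30, below TH (-0.09) and above GC (-1.87) and CC (-4.20). With normexp CPT1A differed by 0.23. MLYCD, malonyl-CoA decarboxylase, fell by -1.48 ± 0.19 (SE, limma adjusted p = 3.6e-06) with no overlap. After IVM, SREBF2, the transcription factor of sterol synthesis, rose by 1.61 ± 0.32 (SE, limma adjusted p = 0.0041) with no overlap, CPT1A rose by 0.96, and 5 did not pass the test. MLYCD fell by -0.98, but its probes ranged from -2.18 to 0.15, and with normexp correction it was at -0.32.

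Of 7 growth and autophagy targets, 3 rose in the oocyte and 2 fell, against 32.9 and 38.3% of all genes. The rises include TSC1 (0.59), with arrays that overlapped, which read -2.42 in the oocyte and -2.22 in CC. With normexp correction its oocyte difference was -0.06. EEF2K, the kinase that halts peptide elongation, rose by 2.63 ± 0.13 (SE, limma adjusted p = 5.5e-11), and its substrate EEF2, the elongation factor, fell by -2.59 ± 0.12 (SE, adjusted p = 1.2e-11). The arrays did not overlap for either gene. After IVM, none of these genes rose and 3 fell, and those were EEF2K by -0.86 and the TSC complex genes TSC1 by -1.22 and TSC2 by -1.47. The probes of TSC1 ranged from -1.68 to 0.40, and with normexp correction TSC1 was at -0.31 and EEF2K at -0.38, against -1.50 for TSC2.

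Of 7 glucose and glycogen targets, 1 rose in the oocyte and 4 fell, against 32.9 and 38.3% of all genes. The rise was that of PFKFB2, an isoform of the enzyme that sets fructose 2,6-bisphosphate, by 2.59 ± 0.15 (SE, limma adjusted p = 2.7e-10). TBC1D4, which holds back glucose transporter traffic, fell by -2.16 ± 0.18 (SE, limma adjusted p = 2.2e-08), and SLC2A4, PFKFB3 and TBC1D1 fell too. For SLC2A4 and PFKFB3 the arrays overlapped. PFKFB3 read 0.48 in the oocyte, above TH (-0.13) and below GC (1.68) and CC (4.16). After IVM, PFKFB2 fell by -2.31 ± 0.26 (SE, limma adjusted p = 1.4e-04), TBC1D4 by -1.92 and GYS1, muscle-type glycogen synthase, by -1.52, each with no overlap, and TBC1D1 rose. With normexp correction these 3 falls were smaller, at -0.78 for PFKFB2, -0.25 for TBC1D4 and -0.87 for GYS1, and the probes of GYS1 ranged from -2.53 to -0.51. The oocyte difference of TBC1D1 was -2.45 with its lowest probe and 0.22 with its highest.

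Of 5 transcription targets, 3 rose in the oocyte and 1 fell, against 32.9 and 38.3% of all genes. PPARGC1A, the coactivator of mitochondrial genes, rose by 3.80 ± 0.16 (SE, limma adjusted p = 6.3e-12) and was at least 6.65-fold higher as a bound, but its probes ranged from -0.67 to 5.86, and with normexp correction it was at 1.29. HDAC5 fell by -3.60 ± 0.13 (SE, adjusted p = 6.6e-13). After IVM, HDAC5 rose by 0.97 ± 0.21 (SE, limma adjusted p = 0.0068) while FOXO3, which rose in the oocyte by 2.21 (0.80 with normexp), was called lower (-1.41). FOXO3 was detected on 1 array after IVM, was at least 1.18-fold higher in CC as a bound, and read 0.29 with normexp correction and -0.15 with the deposited table. MFF, the mitochondrial fission target, was past the threshold neither in the oocyte nor after IVM.

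Of the 13 AMPK-related kinases, which LKB1 activates except for MELK, 6 were higher and 2 lower in the oocyte and 5 had no call. These were 46.2 and 15.4%, against 32.9 and 38.3% of all genes. Among the 6 was MARK4 (1.20), with arrays that overlapped, detected on 0 TH and 0 GC arrays. MARK4 was at least 1.40-fold higher as a bound and at -0.74 with normexp correction. The rises were led by MELK at 4.62 ± 0.29, MARK2 at 3.84 ± 0.27, SNRK at 3.71 ± 0.24 and NUAK2 at 3.37 ± 0.21 (SE, limma adjusted p at most 2.3e-09), with at least 7.92-fold for MARK2 as a bound and a range over probes of 0.79 to 4.34 for NUAK2. With normexp correction MARK2 was at 0.96, SNRK at 2.14 and NUAK2 at 1.99, against 4.58 for MELK. MARK1 fell by -5.92 ± 0.13 (SE, adjusted p = 6.7e-15) and SIK2 by -3.56 ± 0.16 (adjusted p = 1.2e-11). After IVM, 5 of the 13 were called higher and 2 lower, or 38.5 and 15.4% against 30.3 and 15.5% of all genes. Of the 5, BRSK2 (0.55) was detected on 0 CC arrays and 0 arrays after IVM. It read -0.07 with quantile normalization, so its call gives no direction. SIK1, the salt-inducible kinase known as a cyclic AMP response gene, rose by 3.23 ± 0.26 (SE, limma adjusted p = 2.1e-05) and SIK3 by 1.83 ± 0.23 (adjusted p = 2.6e-04), while MELK fell by -2.81 ± 0.25 (adjusted p = 3.8e-05).

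**Figure D4:**
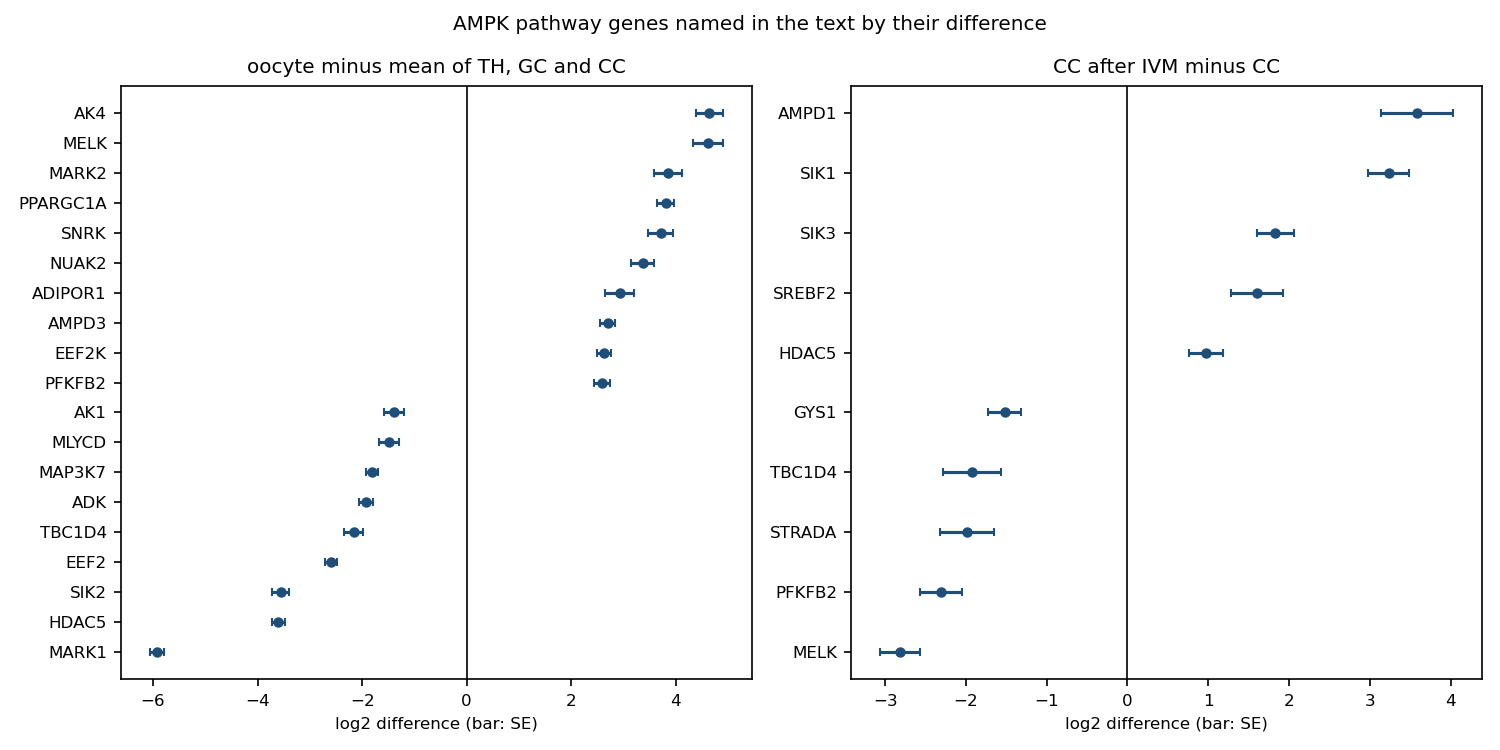
Genes of the AMPK list named for a large difference, past the threshold and without overlap of the arrays (y axis), for the oocyte against the somatic mean (left) and CC after IVM against CC (right), as the log2 difference with its SE (x axis). In the oocyte AK4 and MELK lie highest and MARK1 lowest, and after IVM AMPD1 and SIK1 lie highest and MELK lowest.

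The IVM arrays also carried the marks of stimulated cumulus cells. HAS2, the hyaluronan synthase of cumulus expansion, read 2.20 after IVM and -5.56 in CC, and AREG, an EGF-like ligand, was well above background on all 4 arrays after IVM and on none of the CC arrays. The 4 granulosa and cumulus markers averaged between 3.06 and 3.90 after IVM and between 3.99 and 4.40 in CC, and 3 leukocyte markers between -3.56 and -2.23 after IVM and between -5.31 and -4.06 in CC. Of these 3, PTPRC was not well above background on any array of either group. CD68 read -0.74 after IVM and -2.89 in CC, and CD14 read -1.57 and -3.90. The oocyte markers averaged between -5.56 and -3.57 after IVM and between -3.61 and -1.38 in CC. Whether the mix of cells differed, and its part in the AMPK differences, was not tested.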

How the data were processed

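The authors deposited the Agilent Feature Extraction 10.7.3.1 output of each array, in which intensity is given per spot beside 0 or 1 flags for detection and for outlier spots, and a table of log2 values. The table's columns matched the log2 median pixel signal of their arrays after subtraction of the array median, within 5.0e-09, so they still hold the background.

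From these files, outlier spots were dropped, log2 processed intensity was centred on the 75th percentile of each array, and the median over the spots of a gene was taken. Spots without a gene name (9779) were named by accession where the ARS-UCD2.0 table of RefSeq genes held it (734). Models were fitted with limma 3.58.1 in R 4.3.3 over 22550 genes, in 1 fit of 16 arrays of TH, GC, CC and oocyte and 1 fit of 8 arrays of CC and CC after IVM. The fits were tested on simulated data. Alternatives changed the normalization, background correction, summary over spots, dim-gene filter, blocks, array weights and arrays left out, and used the deposited log2 table and the methods' analysis of variance. Permutation tests used scipy 1.17.1 under Python 3.11.15.

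A gene above background on fewer than 3 of 4 arrays of the dimmer group was given a bound: the brighter group's mean was set, on each dimmer array, against the dimmest detected spot or the gene itself, whichever was higher. The members, the AMPK list and the marker lists were chosen with earlier results of these data known. Named beside the members were the 10 largest rises and 10 largest falls of the AMPK list in the oocyte and the 5 and 5 after IVM, among genes past the threshold without overlap, the genes with the 5 highest and 5 lowest correlations with PRKAG3, and its 2 nearest genes on each side. Of these, 1 gene is not reported here. Other genes of the list were named to complete a count after their values were seen. Markers were of theca, granulosa and cumulus, oocyte, leukocyte, erythroid, endothelial and muscle cells and of stimulated cumulus. Of these, the 2 erythroid markers averaged between -2.66 and 0.29 on all arrays, and the 3 endothelial markers between -2.79 and -1.44 in TH and at most -4.63 elsewhere. The 2 erythroid markers differed, with group means between 3.07 and 5.22 for HBA and between -7.44 and -5.07 for HBB.

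The number of arrays limits the precision. The labels do not tell which replicates share animals.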

Additional observations from a re-analysis of the deposited data

Results flagged for a closer look

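Of 131 groups of 4 arrays examined for the AMPK genes and the named genes of the list, 13 had an array whose gap to the nearest of the others took a larger part of the group's range than the critical value of Dixon's test, where chance gives about 1 in 20. For PRKAB1, PRKAG2 and PRKAB2 in TH the array was replicate 4, at -1.09 against -2.81 to -2.53, at -1.97 against -4.12 to -3.77, and at -6.21 against -5.50 to -5.37. SIK2 in TH was also apart on replicate 4, at -1.66 against -1.01 to -0.90. That array had the brightest 75th percentile of TH, 1101 against 424.1 to 657.7.

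PRKAG3 was apart in CC on replicate 2, at 0.30 against 1.11 to 1.18, and in the oocyte on replicate 2, at -6.20 against -7.88 to -7.62, with no spot well above background on any of these oocyte arrays. PRKAA1 in CC after IVM was apart on replicate 3, at -3.06 against -2.80 to -2.76. In GC, replicate 4 was apart for AK4, at -2.13 against -3.35 to -3.21, and for MELK, at 1.33 against -0.22 to 0.04. ADIPOR1 in the oocyte was apart on replicate 1, at 0.98 against -0.05 to 0.05. In CC after IVM, AMPD1 was at -5.28 on replicate 1 against -3.35 to -3.07, SIK3 was at 3.64 on replicate 1 against 4.34 to 4.38, and SREBF2 was at -3.46 on replicate 2 against -2.15 to -2.06.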

How the results depend on the processing

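The oocyte differences of PRKAA1, PRKAB1, PRKAG1 and PRKAG2 stayed past the threshold under all 30 alternatives and that of PRKAG2 after IVM under all 20. Normexp background correction changed most: 4 subunits and 34 genes of the AMPK list were lower in the oocyte and 36 of the list higher after IVM, PRKAA2 in the oocyte turned to -0.67, PRKAB2 after IVM turned to 0.57, and PRKAG3 was at -5.54 in the oocyte and -3.14 after IVM, against -5.73 and -3.95 with the deposited table. The cause was not tested. After IVM, 1 subunit was called with the array median, with the brightest probe or with the replicate block, and 1 to 3 when 1 array was left out.

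The PRKAA2 to PRKAA1 ratio after IVM was not past the threshold with quantile normalization (1.24), the mean over spots (1.45) or an array left out (1.09 to 1.67), nor was PRKAG2 to PRKAG1 (3.04, 2.90, and 2.69 to 3.102). In the oocyte, PRKAA2 to PRKAA1 passed it with normexp (-2.23) and the deposited table (-2.06). Deviations of same-numbered TH and GC arrays correlated (r between 0.20 and 0.44), but those of the other pairs of groups did not all exceed 0.1, so the numbers were not taken to pair the samples. Among GC arrays, the same-numbered array correlated best with each TH array. The tests of GC against TH above are unpaired, and no paired value is given for them. With the replicate block the PRKAA2 to PRKAA1 ratio was -0.91 in the oocyte (adjusted p = 0.0094) and 1.30 after IVM (adjusted p = 0.063).

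With a random slide block the consensus correlation was -0.26, and no within-slide value can be had after IVM. Signal over background limits PRKAA2, PRKAB2, PRKAG2 in the oocyte and PRKAG3 in the oocyte. Leaving out TH replicate 4, chosen after seeing the data, changed no call of GC or CC against TH.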
